A study of Mus musculus with 6 samples.

Results

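Laminins are the secreted glycoproteins that build the sheet of a basement membrane. Each molecule joins an alpha, a beta and a gamma chain along a coiled coil, and the globular domains at the end of the alpha chain bind integrins and dystroglycan on the cell surface. Around brain vessels the endothelial basement membrane is known for laminins with the alpha4 and alpha5 chains, whereas the outer, parenchymal membrane on which astrocyte endfeet rest is known for the alpha2 chain and, nearer to the leptomeninges, the alpha1 chain. The 9 genes described here were taken by symbol from the 45777 genes of the expression table. They encode 5 alpha chains (Lama1 to Lama5), the beta chains Lamb1 and Lamb2, and the gamma chains Lamc1 and Lamc3.

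RNA was sequenced from tdTomato-positive cells sorted from the brains of male C57BL/6-background Aldh1l1-CreERT2; tdTomato fl/fl mice, which the sample labels give as wild type. All mice of both groups received tamoxifen (75 mg/kg on 5 days), to switch on tdTomato in cells with activity of the Aldh1l1 promoter. At 8 weeks of age either STZ (streptozotocin, which destroys the beta cells of the pancreas) was injected once at 150 mg/kg or citrate buffer was given as vehicle, and the brain was collected after 21 days. Each group held 3 samples, and each sample was a pool of 3 mice, with STZ mice kept only if fasting blood glucose on day 5 passed the limit of the study.

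Total counts lay between 52529048 and 58749115 per sample, so that 3 counts stood for 0.0511 to 0.0571 CPM (counts scaled to the library total), a floor that covers counting error only. The 10 astrocyte markers were abundant, with sums of 6283 to 7331 FPKM (fragments scaled to transcript length and library size) per sample. RNA of choroid plexus was also abundant, with Ttr, the transthyretin gene, alone at 4141 to 12522 FPKM. The test was edgeR's quasi-likelihood test on the 22337 genes that no sample had at 0 counts. Calls required a fold over 1.5 beside a Benjamini-Hochberg adjusted p under 0.05, which 5 genes (0.0224%) met.

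The laminin chains of these cells were led by Lamb2 and Lama2. Over the 6 samples, Lamb2, the beta chain known from the kidney filter and the neuromuscular synapse, had a mean level of 11.3 FPKM ± 1.45 (SD, n = 6), and Lama2, the alpha chain lost in merosin-deficient muscular dystrophy, had 6.37 FPKM ± 0.762 (SD, n = 6). The 6 values of Lamb2 lay between 8.995 and 12.8 FPKM and those of Lama2 between 5.42 and 7.25 FPKM, so that these neighbours in the order did not overlap. Then came Lamc1 (mean 1.64 FPKM, 1.51 to 1.99), Lamb1 (1.62 FPKM, 0.910 to 2.09), Lama3 (1.43 FPKM, 0.943 to 1.88) and Lama5 (1.23 FPKM, 0.848 to 1.73), whose ranges overlapped one another. Lama4 (mean 0.286 FPKM, 0.158 to 0.455) lay below all of them, Lamc3 (0.132 FPKM, 0.0815 to 0.243) overlapped with Lama4, and Lama1 (0.0209 FPKM, at most 0.0353) was the lowest. Lamb2 stood above 75.1% of the genes tested and Lama2 above 65.8%.

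**Figure D1:**
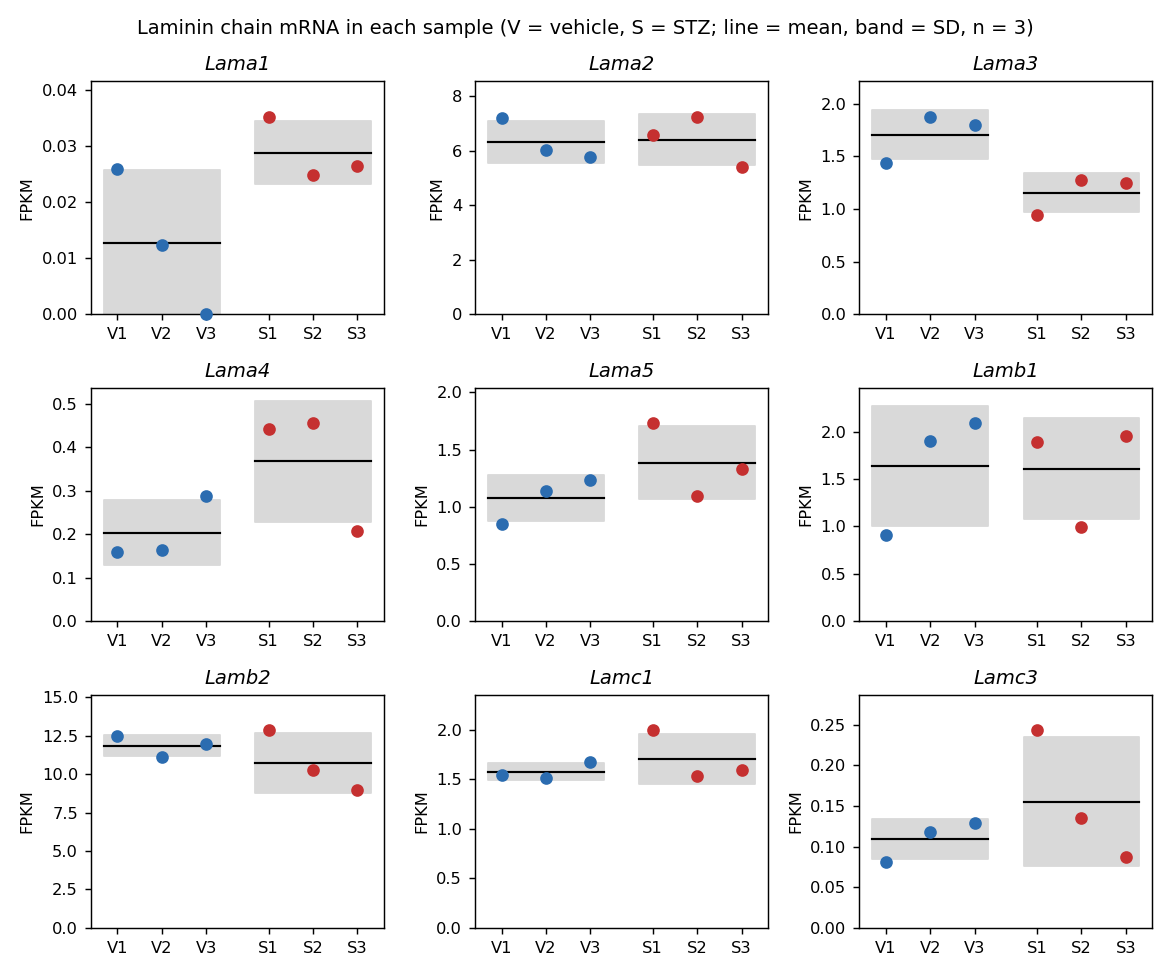
Level (FPKM, vertical axis from 0, scaled for each gene) of the 9 laminin chain genes in the 3 vehicle samples (V1 to V3, blue) and the 3 STZ samples (S1 to S3, red); lines are group means and grey bands are 1 SD. Lama3 is the gene whose STZ values (0.943 to 1.28 FPKM) all lie below its vehicle values (1.44 to 1.88 FPKM).

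Between STZ and vehicle, no laminin chain passed the adjusted threshold of edgeR, and the levels of most chains overlapped between the groups. Of the 9 genes 8 had a count in every sample and were tested. Of these 8, 4 had a log2 fold change above 0 and 4 below 0, and their median was 0.0074, beside 0.012 for all genes tested. In mean FPKM 5 of the 8 were higher and 3 lower with STZ, Lama2 being the one whose direction differed between the scales. The groups did not overlap for 1 of the 8 (Lama3, lower with STZ), where 18.5% of all genes tested had groups that did not overlap (8.64% higher and 9.85% lower with STZ), and the same gene alone had an unadjusted edgeR p under 0.05, where 11.3% of all genes did. These shares of the members are close to the background. DESeq2, the tool of the study, called Lama3 as well (1 of 8), against 1.05% of all genes called and 0.394% called lower with STZ.

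**Figure D2:**
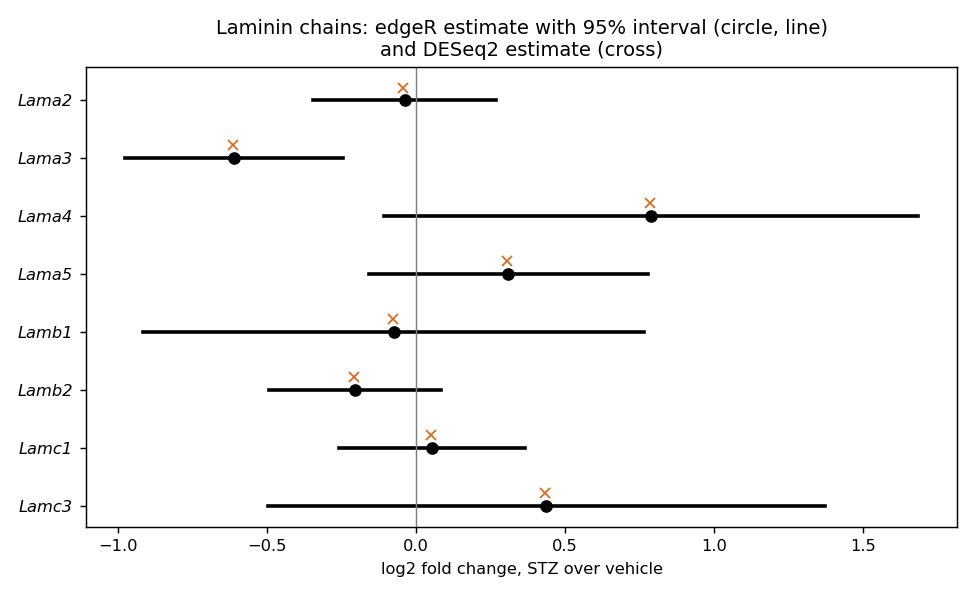
Log2 fold change of STZ over vehicle (horizontal axis) for the 8 laminin chains tested, with edgeR's estimate and 95% interval (circle and line) and DESeq2's estimate (cross). Only the interval of Lama3 (-0.98 to -0.25) leaves out 0.

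Among the alpha chains, Lama2 (NCBI gene 16773, chromosome 10, 26981285 to 27617191 in GRCm38), the chain typical of the astrocyte side of the vessel, had means that differed by less than the spread between samples. Its level was 7.20, 6.03 and 5.76 FPKM in the vehicle samples and 6.56, 7.25 and 5.42 FPKM in the STZ samples. STZ samples held both the highest and the lowest of these values, and the vehicle range lay within that of STZ. The log2 fold change was -0.038 (standard error, SE, 0.132), with a 95% interval from -0.35 to 0.27 that still allows an STZ level between 0.787 and 1.21 times that of vehicle (adjusted p = 0.937, edgeR).

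Lama1 (NCBI gene 16772, chromosome 17, 67697127 to 67822645), whose chain is known from embryonic and leptomeningeal basement membranes, was near the limit of detection. It had 15, 7 and 0 counts in the vehicle samples and 22, 15 and 16 counts in the STZ samples. Since 1 vehicle sample had no count, Lama1 was not among the genes tested, and with no filter its log2 fold change was 1.09 (SE 0.891, adjusted p = 0.666, edgeR). Without vehicle replicate 3, the sample with 0 counts, it was 0.50 (adjusted p = 0.687, edgeR).

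Lama3 (NCBI gene 16774, chromosome 18, 12333417 to 12583013) encodes the alpha chain of epithelial laminins, best known from the anchoring of skin to its basement membrane. Its level was 1.44, 1.88 and 1.80 FPKM in the vehicle samples and 0.943, 1.28 and 1.24 FPKM in the STZ samples. All 3 STZ samples thus lay below all 3 vehicle samples, with means of 1.15 FPKM ± 0.185 and 1.71 FPKM ± 0.233 (SD, n = 3 per group). These values rest on 634 to 1176 counts per sample, so that counting error is small beside the spread between samples. The log2 fold change was -0.61 (SE 0.157), or 0.655 times the vehicle level, with an adjusted p of 0.288 from edgeR and 0.0266 from DESeq2.

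When single samples were dropped, the log2 fold change of Lama3 stayed between -0.71 and -0.48 in edgeR. DESeq2's adjusted p then ran from 0.00831 to 0.218, and Lama3 was called in 2 of the 6 fits (without vehicle replicate 1 and without STZ replicate 3). Without vehicle replicate 2 it was 0.218, without STZ replicate 1 0.109, without vehicle replicate 3 0.0840 and without STZ replicate 2 0.0785. Exons of Lama3 share 197 bases with Gm29200 on the opposite strand, which had a median of 38.5 counts beside 882 for Lama3, and whether reads were counted by strand is not given in the sources used here. The summed astrocyte markers (6283 to 7331 FPKM with vehicle, 6593 to 7214 FPKM with STZ) and the summed 10 choroid plexus and ependymal markers (4344 to 13036 and 7078 to 11900 FPKM) overlapped between the groups, none of these 20 markers being at 0 in any sample. Singly, by scaled counts, 3 of the 10 astrocyte markers (Aqp4, Aldh1l1 and Slc1a2) had STZ samples all below vehicle, and 1 (Gjb6) all above. Of all genes 9.85% and 8.64% did. Aqp4 had a log2 fold change of -0.48 (adjusted p = 0.280, edgeR). The sums of the 15 endothelial markers did not overlap (38.9 to 137 and 141 to 263 FPKM). Taken singly, 8 of the 15 had STZ samples all above the vehicle samples, where 8.64% of all genes did. The part of endothelial RNA in the Lama3 values was not tested.

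The vascular-type alpha chains had higher means with STZ, without passing the test. Lama4 (NCBI gene 16775, chromosome 10, 38965515 to 39110188), the alpha chain of endothelial and perivascular membranes, had 0.158, 0.164 and 0.289 FPKM in the vehicle samples and 0.442, 0.455 and 0.207 FPKM in the STZ samples. STZ replicates 1 and 2 were above every vehicle sample, and STZ replicate 3 lay within the vehicle range. The log2 fold change was 0.79 (SE 0.385, 95% interval -0.11 to 1.68, adjusted p = 0.490, edgeR), on 56 to 168 counts per sample. With a sample left out it ran from 0.61 (without STZ replicate 2) to 1.11 (without vehicle replicate 3).

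Lama5 (NCBI gene 16776, chromosome 2, 180176373 to 180225904), the alpha chain that endothelium of mature vessels adds to its membrane, was the more abundant vascular chain. Its level was 0.848, 1.14 and 1.23 FPKM in the vehicle samples and 1.73, 1.10 and 1.33 FPKM in the STZ samples. STZ replicate 1 was the highest and vehicle replicate 1 the lowest, and STZ replicate 2 lay within the vehicle range. Within its group Lama5 was lowest in vehicle replicate 1 and in STZ replicate 2. In the same samples the summed choroid plexus and ependymal markers were lowest (4344 and 7078 FPKM) and the summed microglial markers highest (333 and 317 FPKM) within their groups. The part of choroid plexus RNA in the Lama5 level was not tested. The log2 fold change was 0.31 (SE 0.201, 95% interval -0.16 to 0.78, adjusted p = 0.586, edgeR). Without STZ replicate 1 it was 0.13.

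Endothelial markers were also higher in the STZ samples. The 15 endothelial markers, among them Cldn5, Flt1 and Cdh5, summed to 38.9, 57.0 and 137 FPKM in the vehicle samples and to 263, 197 and 141 FPKM in the STZ samples, and none was at 0 in any sample. Their log2 fold changes were all above 0 (15 of 15, median 1.14), and 13 of 15 had an unadjusted edgeR p under 0.05, where 5.63% of all genes were higher at that level. EdgeR called 0 of them and DESeq2 called 2 as higher, against 0.654% of all genes. In bulk samples, more cells of a type and more RNA per cell cannot be told apart. The 12 pericyte and smooth muscle markers summed to 37.7 to 59.8 FPKM with vehicle and 59.4 to 80.2 FPKM with STZ, with Anpep at 0 in 1 vehicle sample. Of these markers 11 were tested, 10 had a log2 fold change above 0 (median 0.87), and 5 had STZ samples all above the vehicle samples, where 8.64% of all genes did. EdgeR called 0 of the 11 but gave 5 of them an unadjusted p under 0.05. As higher with STZ, 5 were called by DESeq2 (Tagln, Acta2, Myh11, Higd1b and Rgs5). The mural cell genes with the highest level, Vtn and Pdgfrb, had log2 fold changes of 0.073 and -0.081. The part of mural cell RNA in the chain levels was not tested.

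Set against the summed endothelial markers, the vascular chains had lower values with STZ. Lama4 came to 4.08, 2.88 and 2.12 FPKM per 1000 FPKM of endothelial markers in the vehicle samples and to 1.68, 2.31 and 1.46 in the STZ samples. For Lama5 the values were 21.8, 20.0 and 9.01 with vehicle and 6.57, 5.56 and 9.38 with STZ. The groups overlapped for both chains by this measure, which was chosen after the values were seen, and the part of endothelial RNA in the levels of Lama4 and Lama5 was not tested.

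**Figure D3:**
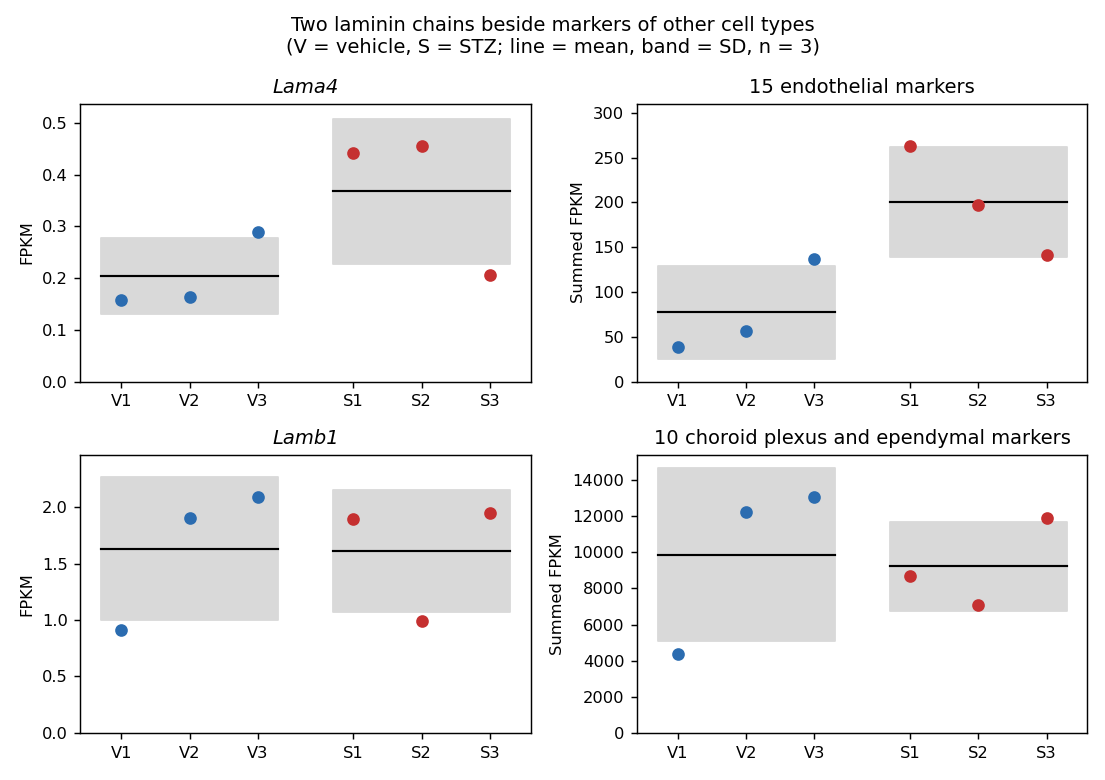
Lama4 and Lamb1 (FPKM, left) beside the summed FPKM of 15 endothelial and of 10 choroid plexus and ependymal markers (right) in the 3 vehicle (V, blue) and 3 STZ samples (S, red), all axes from 0, lines and bands being group means and 1 SD. The endothelial sums of the STZ samples (141 to 263) lie above those of vehicle (38.9 to 137), and Lamb1 is lowest in V1 and S2, the samples with the lowest choroid plexus sums of their groups.

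The balance of alpha chains compares the astrocyte-type with the vascular-type genes within each sample, where it does not depend on depth. Lama1 and Lama2 together made up 67.9% ± 6.002 of the summed alpha chain FPKM with vehicle and 68.7% ± 2.96 with STZ (SD, n = 3 per group). Lama4 and Lama5 together made up 10.4% to 16.7% with vehicle and 15.4% to 22.3% with STZ. The lowest shares of the groups were those of vehicle replicate 1 and STZ replicate 2, which also had the lowest choroid plexus and ependymal sums of their groups. Their mean share was 13.8% ± 3.18 in vehicle samples and 18.8% ± 3.498 in STZ samples (SD, n = 3 per group), 5.01 percentage points higher with STZ, and the ranges overlapped. That difference was 3.23 points without STZ replicate 1 and 3.33 points without vehicle replicate 1, and 6.72 points at most (without STZ replicate 2). Lama3 had shares of 14.9%, 20.4% and 19.8% in the vehicle samples and 9.71%, 12.6% and 15.1% in the STZ samples, of which STZ replicate 3 lay just inside the vehicle range.

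**Figure D4:**
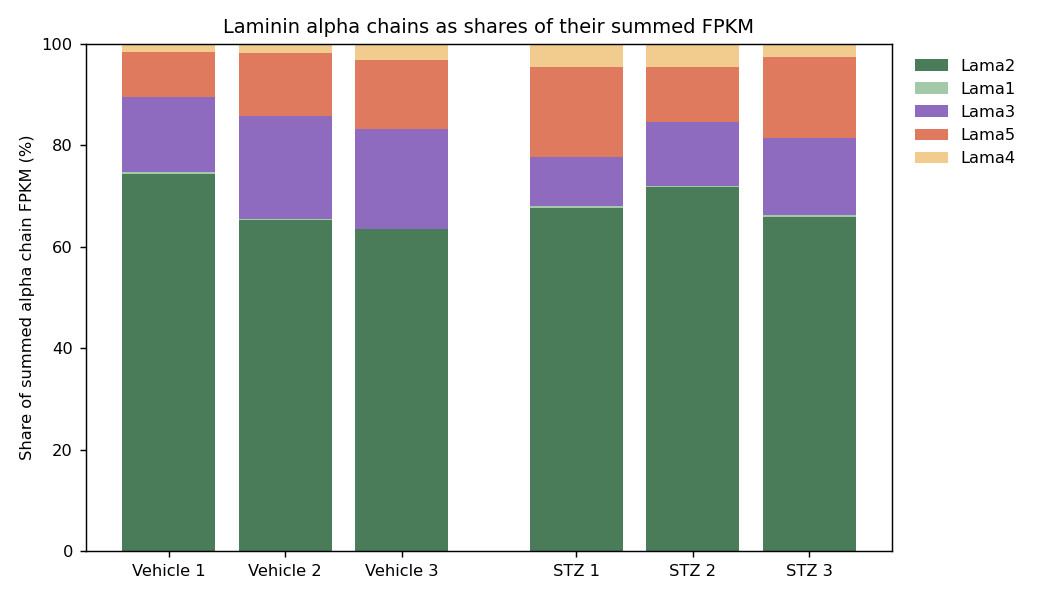
Stacked bars of the share (percent, 0 to 100) of Lama1 to Lama5 in the summed alpha chain FPKM of each sample. Lama2 holds 63.4% to 74.4% in every sample, and the Lama3 segment averages 18.4% with vehicle and 12.5% with STZ.

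The beta chains, which pair with the alpha chain in the coiled coil, were dominated by Lamb2 in both groups. Lamb2 (NCBI gene 16779, chromosome 9, 108479847 to 108490530) had 12.5, 11.1 and 11.9 FPKM with vehicle and 12.8, 10.3 and 8.995 FPKM with STZ. STZ replicates 2 and 3 were below every vehicle sample, while STZ replicate 1 was the highest of all 6. The log2 fold change was -0.21 (SE 0.124, 95% interval -0.49 to 0.085, adjusted p = 0.563, edgeR). It was -0.35 without STZ replicate 1 (adjusted p = 0.508, edgeR) and -0.10 without STZ replicate 3.

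Lamb1 (NCBI gene 16777, chromosome 12, 31265146 to 31329644), the beta chain of the laminins shared by most tissues, had the largest SD relative to its mean among the chains above 1 FPKM. It had 0.910, 1.90 and 2.09 FPKM with vehicle and 1.89, 0.990 and 1.95 FPKM with STZ. Vehicle replicate 1 and STZ replicate 2 stood apart at about the same low level, and the groups overlapped fully. The summed choroid plexus and ependymal markers were lowest within their groups in the same 2 samples. They came to 4344 FPKM in vehicle replicate 1 and 7078 FPKM in STZ replicate 2, against 8702 to 13036 FPKM in the other 4. Most of each sum was Ttr (4141 and 6760 FPKM in these samples). The ependymal markers Foxj1, Ccdc153 and Tmem212 were instead lowest among STZ samples in replicate 3. Summed microglial markers were highest in the same 2 samples as the low Lamb1 (333 and 317 FPKM, against 228 to 239 FPKM in the other 4). The part of choroid plexus RNA in the Lamb1 level was not tested. The log2 fold change of -0.076 has a 95% interval from -0.92 to 0.76, so that the data at this spread still allow changes within that range (adjusted p = 0.959, edgeR).

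Of the gamma chains, Lamc1 (NCBI gene 226519, chromosome 1, 153218922 to 153332786) is the partner found in nearly all laminins. It had 1.55, 1.51 and 1.67 FPKM with vehicle and 1.99, 1.53 and 1.59 FPKM with STZ, overlapping between the groups. Its log2 fold change was 0.053 (SE 0.134, 95% interval -0.26 to 0.37, adjusted p = 0.907, edgeR). Lamc3 (NCBI gene 23928, chromosome 2, 31887281 to 31949083), a chain known from retina and the surface of the developing cortex, held 5.01% to 10.9% of the gamma chain FPKM. It had 0.0815, 0.118 and 0.129 FPKM with vehicle and 0.243, 0.136 and 0.0875 FPKM with STZ, on 41 to 130 counts. STZ replicate 1 stood well above the other 5, and without it the log2 fold change of 0.44 became -0.035 (adjusted p = 0.706 with all samples, edgeR).

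In every sample the summed gamma chain mRNAs were far below the summed alpha and the summed beta chain mRNAs. Lamb2 and Lama2 made up most of the beta and alpha sums. Singly, Lamc1 (mean 1.64 FPKM) was near Lamb1 (1.62 FPKM), Lama3 (1.43 FPKM) and Lama5 (1.23 FPKM). Summed FPKM was 9.34 ± 0.660 for the alpha chains, 12.9 ± 1.51 for the beta chains and 1.77 ± 0.236 for the gamma chains (SD, n = 6). The ratio of beta to gamma chain FPKM was 8.22, 7.99 and 7.79 in the vehicle samples and 6.59, 6.77 and 6.52 in the STZ samples. The groups did not overlap and were each narrow, at 7.997 ± 0.213 and 6.63 ± 0.127 (SD, n = 3 per group). The ratio of Lamb2 alone to Lamc1 alone ran from 7.14 to 8.06 with vehicle and from 5.66 to 6.72 with STZ. Both ratios were singled out after their values were seen, they stand as descriptions without a test, and neither chain passed the test by itself.

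Lamb3, outside the 9 genes, encodes the beta chain that joins Lama3 in epithelial laminin. It had 9, 18 and 22 counts in the vehicle samples and 49, 34 and 10 counts in the STZ samples, and the groups overlapped. Its mean level over the 6 samples was 0.0941 FPKM, far under the 1.43 FPKM of Lama3. It did not pass the test, with a log2 fold change of 0.79 (adjusted p = 0.626, edgeR).

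The receptors of laminin at the cell surface had small differences between the groups, and their direction depended on the scale. Of 13 receptor genes tested, 7 had a lower and 6 a higher mean FPKM with STZ, while on the TMM-scaled counts of the test 10 had a log2 fold change below 0 and 3 above, with a median of -0.14, where 51.9% of all genes tested had one above 0. With a sample left out that median ran from -0.21 (without vehicle replicate 2) to -0.026 (without STZ replicate 2). None was called, and 1 (Dag1) had an unadjusted edgeR p under 0.05, where 11.3% of all genes did. Dag1, which encodes dystroglycan, the receptor that ties laminin to the dystrophin complex of the endfoot, had 59.2, 47.9 and 52.3 FPKM with vehicle and 46.4, 46.3 and 42.6 FPKM with STZ. All 3 STZ samples lay below the vehicle samples, with a log2 fold change of -0.30 (SE 0.0950, adjusted p = 0.345, edgeR). Such a separation was seen for 2 of the 13 receptors and for 9.85% of all genes.

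Most integrin alpha chains of the list had log2 fold changes below 0 (Itga2 -0.55, Itga3 -0.37, Itga6 -0.23 and Itga7 -0.18), and only Itga1 had one above. Itga2, with the largest of these decreases, had a mean level of only 0.0714 FPKM (adjusted p = 0.523, edgeR). Itga6, part of laminin-binding integrins, had mean levels of 20.5 FPKM ± 2.22 in vehicle samples and 18.2 FPKM ± 1.23 in STZ samples (SD, n = 3 per group), and Itga1, which binds collagen and laminin, had 0.507 ± 0.135 and 0.798 ± 0.165. Their log2 fold changes of -0.23 and 0.59 did not pass (adjusted p = 0.458 and 0.452, edgeR). The receptor gene with the highest level was Sdc4, a heparan sulfate proteoglycan, at 139 FPKM with vehicle and 143 FPKM with STZ.

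Dystroglycan binds laminin through a sugar chain that a series of enzymes builds on it. Of 17 genes of this series tested, 0 were called by edgeR, 1 had a higher and 3 a lower level with STZ at an unadjusted p under 0.05 (5.63% and 5.65% of all genes), and the median log2 fold change was -0.083. Pomt1 and Pomt2, which together attach the first mannose, had mean levels of 25.2 and 13.3 FPKM with vehicle and 21.4 and 11.1 FPKM with STZ. For both genes the STZ samples lay below all vehicle samples, with log2 fold changes of -0.30 and -0.34 (adjusted p = 0.301 for each, edgeR). They were the 2 of the 17 genes separated in this direction, where 9.85% of all genes were. Pomgnt1, which extends that mannose, was the third, with a log2 fold change of -0.41 (adjusted p = 0.371, edgeR) and groups that overlapped.

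Dpm1 had the largest value of this list. It encodes the catalytic subunit of the synthase of dolichol phosphate mannose, which also serves other mannosylation pathways. Its level was 10.1, 11.2 and 20.0 FPKM with vehicle and 25.9, 30.5 and 27.9 FPKM with STZ. The STZ samples were all above the vehicle samples, although vehicle replicate 3 was apart from the other two, and the log2 fold change was 0.98 (SE 0.244, adjusted p = 0.283 from edgeR and 0.00271 from DESeq2, which called it). Of the 17 enzymes 1 was separated in this direction, where 8.64% of all genes were. DESeq2 called 1 of the 17 as higher, against 0.654% of all genes. The most abundant enzyme, B4gat1, had 109 FPKM in both groups.

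**Figure D5:**
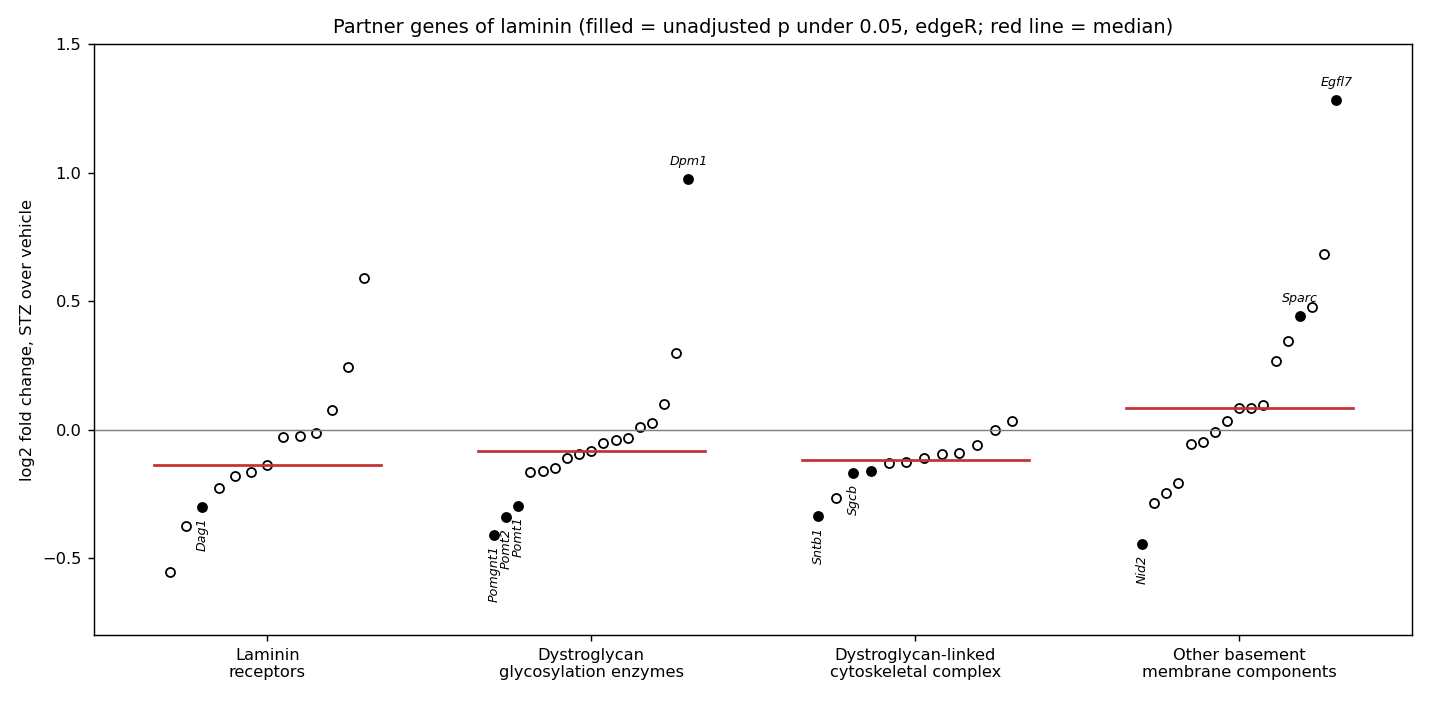
Log2 fold change of STZ over vehicle (vertical axis) for each tested gene of 4 lists of laminin partners, filled where edgeR's unadjusted p was under 0.05, with the median of each list as a red line and names at the genes described in the text that are filled. The medians are -0.14, -0.083, -0.12 and 0.085 from left to right.

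Inside the cell, dystroglycan is held by dystrophin and its partners. Of the 12 genes of this complex tested, 11 had a log2 fold change below 0 on TMM-scaled counts, with a median of -0.12, while 8 had a lower and 4 a higher mean FPKM with STZ. None was called by edgeR or DESeq2, and 3 were lower at an unadjusted edgeR p under 0.05, where 5.65% of all genes were. Sgcb, which encodes beta-sarcoglycan, had mean levels of 31.6 FPKM ± 0.359 and 29.3 FPKM ± 1.25 with vehicle and STZ (SD, n = 3 per group). Its groups did not overlap, and the log2 fold change was -0.17 (adjusted p = 0.411, edgeR). Of the 12 genes 2 had STZ samples all below the vehicle samples, where 9.85% of all genes did. Sntb1, which encodes a syntrophin, an adaptor protein bound to dystrophin, had a log2 fold change of -0.34 (adjusted p = 0.439, edgeR), and Dmd, the dystrophin gene and the most abundant of the list, had 69.8 and 70.3 FPKM with vehicle and STZ.

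The other components of the basement membrane had a median log2 fold change of 0.085 that became -0.16 without STZ replicate 1. Of 17 genes tested, 10 had a log2 fold change above 0 and 7 below (12 and 5 in mean FPKM), 2 were higher (5.63% of all genes) and 1 lower (5.65%) at an unadjusted p under 0.05, and 0 were called. Nid2, a nidogen that links laminin to collagen IV, had mean levels of 4.84 FPKM ± 0.963 in vehicle samples and 3.70 FPKM ± 0.395 in STZ samples (SD, n = 3 per group), and a log2 fold change of -0.44 (adjusted p = 0.379, edgeR). Col4a1 and Col4a2, which encode the main collagen IV chains, had log2 fold changes of -0.055 and 0.085.

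Sparc, a secreted collagen-binding protein, was by far the most abundant gene of that list. It had 585, 524 and 549 FPKM with vehicle and 963, 762 and 664 FPKM with STZ. All STZ samples were above all vehicle samples, and the log2 fold change was 0.44 (SE 0.134, adjusted p = 0.326, edgeR). Of the 17 genes tested 2 (Sparc and Egfl7) were separated in this direction, where 8.64% of all genes were. Egfl7, which is also among the endothelial markers, had 3.17, 4.81 and 9.28 FPKM with vehicle and 20.5, 13.9 and 9.64 FPKM with STZ, a log2 fold change of 1.28 (adjusted p = 0.348, edgeR). The summed endothelial markers differed in the same direction (38.9 to 137 FPKM with vehicle, 141 to 263 FPKM with STZ), and their part in the Sparc level was not tested.

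Netrins share the N-terminal domain of laminin chains. Of 7 such genes tested none was called or had an unadjusted p under 0.05. Ntn4, which can insert into laminin networks, was the most abundant, at 3.64 FPKM ± 0.394 in vehicle samples and 3.04 FPKM ± 0.667 in STZ samples (SD, n = 3 per group), with a log2 fold change of -0.32 (adjusted p = 0.551, edgeR). The log2 fold changes of Ntn3 and Ntn5 were -0.27 and 0.85 (adjusted p = 0.523 and 0.490, edgeR), with Ntn5 at only 0.142 FPKM.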

How the data were processed

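The authors trimmed reads with Trimmomatic 0.38, aligned them to mm10 with HISAT2 2.1.0 and quantified RefSeq genes with StringTie 2.1.3b (versions from the submitters' processing notes). The deposited counts are whole read counts per gene, not normalized. The deposited FPKM values were scaled by the authors to transcript length and mapped reads, and the deposited TPM values are the authors' transcript levels scaled to a fixed total. Libraries were made from poly(A) RNA. The sample labels name a SMART-Seq kit, and the methods of the study name an Illumina TruSeq library kit beside SMART-Seq. Levels here are FPKM, and tests use the counts of genes that no sample had at 0 (edgeR 4.0.16 in R 4.3.3, TMM scaling, the two-sided quasi-likelihood test of group without covariates, Benjamini-Hochberg adjustment over all genes). P-values measure the spread between pools of mice. No pair of samples had the same total count. DESeq2 1.42.0 and limma 3.58.1 were used for alternatives, and the procedures were tested on simulated data. Gene positions are those of RefSeq on GRCm38, the assembly behind mm10, to which all 9 genes were matched by NCBI gene number, and overlapping exons were read from GENCODE M21.

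The members and gene lists were chosen with earlier results of these data known. Named are the 9 chains, Lamb3, in each partner list the 3 genes with the smallest edgeR p and the gene with the highest FPKM, and the genes most like Lama2 and Lama4. Pomgnt1, Col4a1 and Col4a2 were named after their values were seen, as were single markers. Some genes that this rule names are not reported here.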

Additional observations from a re-analysis of the deposited data

How the results depend on the processing

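The number of genes called was 5 with edgeR, 234 with DESeq2, 10 with robust fitting and 0 with limma on log2(TPM + 1) or log2(TPM + 0.1), and it was 0 to 1 with a sample left out. DESeq2 with the replicate block and DESeq2 with a sample left out, both chosen after seeing the data, called 124 and 121 to 696 (215, 127 and 696 without vehicle replicates 1, 2 and 3, and 121, 135 and 365 without STZ replicates 1, 2 and 3). Samples with the same replicate number did not deviate together (correlations of -0.101, -0.162 and -0.184), so the number is not taken as a pairing. With it as a replicate block, the edgeR count was 0, and 1793 genes in place of 2519 had an unadjusted p under 0.05. Of the laminin chains, 0 were called in every edgeR and limma fit and 1, Lama3, with DESeq2, with DESeq2 and the replicate block, and in 2 of the 6 DESeq2 fits with a sample left out, so that the count ran from 0 to 1. Its adjusted p from edgeR was 0.288, and 0.586 with the replicate block. The number of chains at an unadjusted p under 0.05 was 1, 2 with DESeq2, and 1 to 2 with a sample left out. Of the enzymes of dystroglycan 1 was called by DESeq2 with or without the replicate block (Dpm1). With a sample left out, DESeq2 called 0 to 1 enzymes, 0 to 1 receptors (Itga1, without vehicle replicate 3) and 0 to 2 basement membrane genes (Egfl7 and Smoc2 without vehicle replicate 3, Nid2 without vehicle replicate 1).

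Of 168 chain values under other settings, 14 had the other sign, all with a sample left out. With a sample left out, the log2 fold changes in edgeR ran from -0.14 to 0.070 for Lama2, -0.37 to 0.18 for Lamb1, -0.35 to -0.10 for Lamb2, -0.067 to 0.13 for Lamc1 and -0.035 to 0.72 for Lamc3. Lama2 reached 0.070 without vehicle replicate 1 and 0.069 without STZ replicate 3 (0.076 and 0.059 in DESeq2). Lamb1 reached 0.036, 0.13 and 0.18 without vehicle replicate 2, vehicle replicate 3 and STZ replicate 2 (0.046, 0.13 and 0.17 in DESeq2). Without STZ replicate 1, Lamc1 was at -0.067 and Lamc3 at -0.035 (-0.072 and -0.039 in DESeq2). The causes were not tested. The difference in the vascular-type share kept its direction with counts in place of FPKM (4.94 percentage points) and against Lama2 alone (4.52), and it ran from 3.23 to 6.72 points with a sample left out. The median of the receptors ran from -0.21 to -0.026 with a sample left out, and that of the basement membrane components became -0.16 without STZ replicate 1. Laminin transcripts are long (5629 to 11388 bases), and the 3477 tested genes of at least 5000 bases had a median log2 fold change of -0.035. Lama1 and Lamb3 are limited by their few counts.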

Other observations

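Across the 6 samples, the genes whose log2 CPM was most like that of Lama2, among 12326 genes with a mean of at least 5 CPM, were LOC115490413, Cpeb3, Ubn1, Gm46732 and Myo9a (Pearson r from 0.984 to 0.991). Those most like Lama4, among 12327 genes, were Rbl1, Pabpc4, Akna, Rasgrp2 and Iqgap1 (r from 0.994 to 0.999). Lama2 and Lamb1 had an r of -0.88, and Lama4 had an r of 0.76 with Lamc3 and of 0.15 with Lama2. All of these values share the same 6 libraries, and with so many genes and so few samples high values are frequent; they are given as a description.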
